A study of Homo sapiens with 6 samples.

Results

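The miR-183, miR-96 and miR-182 cluster is a group of 3 microRNA genes that lie close together on the minus strand of chromosome 7 and are read in the same direction. In the deposited short RNA table, rows named with a non-coding RefSeq accession, placed on the minus strand of chromosome 7 with a start from 129410000 to 129415000 (hg19) and belonging to a gene whose symbol starts with MIR and a digit were taken as members. This rule found 2 of 3437 rows, MIR182 (NR_029614) and MIR183 (NR_029615). MIR96, which lies between them, was not analysed here, since no row carries its accession or symbol.

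Short RNAs were sequenced from total RNA of Caco2 WT cells and of PIWIL2 KO cells, with 3 samples of each genotype, to ask how depletion of PIWIL2 changes them. Caco2 is a human cell line with the character of colon epithelium, grown here to confluency. The KO cells are 1 clone obtained with CRISPR/Cas9. In it the study found an unaffected allele and PIWIL2 RNA and full-length protein that were lowered but not absent. The table holds 1 value per genotype and strand in CPM, reads of a row per depth of the library, the depth being its unique hg19 alignments, so neither an SD over samples nor a test between genotypes could be given. Low values fall on steps, from which a single read corresponded to 0.0776 CPM for Caco2 WT and to 0.0738 CPM for PIWIL2 KO, or to a depth of about 12900000 and 13500000 mapped reads. The intervals given here are exact 95% intervals on read numbers estimated from these steps, and the numbers are approximate if the values are means of samples that were scaled separately. As PCR reads have no molecular identifiers and may copy the same molecule, the intervals hold counting error alone and not the spread between samples.

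A microRNA gene is transcribed as a long precursor that folds into a hairpin. The nuclease Drosha frees the hairpin in the nucleus, Dicer removes the loop in the cytoplasm, and an arm of the stem, called 5p or 3p after its place, is loaded into an Argonaute protein. The loaded microRNA finds messenger RNAs mostly through its seed, the bases 2 to 8 from its 5′ end, which pair with sites in 3′ UTRs, and the messages are then repressed. PIWIL2 is itself a member of the Argonaute family, but of the branch that binds piRNAs, short RNAs that act on transposable elements. This cluster is best known from sensory cells, where changes in MIR96 cause hearing loss, and it is often raised in carcinomas, including those of the colon. Among the described targets of miR-182 are FOXO1 and FOXO3, transcription factors that restrain growth.

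The mature sequences of the cluster are shown because the 3 microRNAs resemble each other in the seed, so that their values may be read together. They are taken from RefSeq (GRCh38.p14), run 5′ to 3′, and carry the seed in capitals.
hsa-miR-182-5p: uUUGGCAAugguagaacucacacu
hsa-miR-96-5p: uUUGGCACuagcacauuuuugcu
hsa-miR-183-5p: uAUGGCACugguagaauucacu
hsa-miR-182-3p: uGGUUCUAgacuugccaacua
hsa-miR-96-3p: aAUCAUGUgcagugccaauaug
hsa-miR-183-3p: gUGAAUUAccgaagggccauaa

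The seeds of the 5p arms are close to each other but not the same. Counted from the 5′ end, miR-182-5p and miR-96-5p share 6 of 7 seed bases and differ by A8C, miR-96-5p and miR-183-5p share 6 of 7 and differ by U2A, and miR-182-5p and miR-183-5p share 5 of 7 and differ by U2A and A8C. Outside the seed the order of likeness is another one. Compared base by base without gaps, miR-182-5p matched miR-183-5p at 18 of 22 bases but miR-96-5p at only 12 of 23. Among all mature entries of the RefSeq table, the seed of miR-182-5p was held by no other name, and that of miR-96-5p by hsa-miR-1271-5p. Past a mean of 0.3 sense CPM, no other microRNA row with an entry in that table had a seed of the cluster.

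MIR182 is annotated in GRCh37, the same build as hg19, as chr7:129410223-129410332 (ENSG00000207990.1), MIR96 as chr7:129414532-129414609 (ENSG00000199158.1) and MIR183 as chr7:129414745-129414854 (ENSG00000207691.1), all on the minus strand. The start positions of the deposited rows were those of the MIR182 and MIR183 hairpins. The rows are tagged as 3′ UTRs in the deposited names, and these names give no end position. In the direction of transcription MIR183 comes first, MIR96 follows after 135 bases, and MIR182 comes last after a further 4199 bases, for a span of 4632 bases in all. All 3 hairpins lie in introns of 1 transcript of the long non-coding gene ENSG00000286380.3 on the same strand (GENCODE release 44 mapped to GRCh37). The nearest protein-coding genes are NRF1, 13301 bases away on the plus strand, and UBE2H, 55718 bases away on the minus strand.

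The hairpin of MIR182 is given here with both mature arms in capitals. The row has the start position of this hairpin and a single value per genotype and strand, which does not tell the arms apart.
MIR182 hairpin: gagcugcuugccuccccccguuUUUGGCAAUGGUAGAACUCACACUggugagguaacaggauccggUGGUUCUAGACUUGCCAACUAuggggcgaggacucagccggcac
The 5p arm covers bases 23 to 46 of the 110 bases and the 3p arm bases 67 to 87, which corresponds to chr7:129410287-129410310 and chr7:129410246-129410266. The hairpin sequence was the same in GRCh37. Each of the 6 mature sequences of the cluster occurred exactly once in GRCh37, on either strand, so a full-length read of such an arm without mismatches has 1 place to map. By contrast, 8 of the 26 microRNA rows past a mean of 0.3 sense CPM belong to genes whose mature sequence is shared with another gene, among them MIR7-1, MIR103A1 and MIR30C2, and reads of these can be split between copies. For 2 further rows, MIR30D and MIR320A, the RefSeq table held no mature entry, so sharing could not be judged.

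MIR182 was listed at 342.93 sense CPM in Caco2 WT (interval 333 to 353) and at 479.69 sense CPM in PIWIL2 KO (468 to 491). These values correspond to about 4421 and 6499 reads. The value was thus higher in PIWIL2 KO, with counting intervals that do not overlap. The ratio was 1.40 (1.35 to 1.45), a log2 ratio of 0.48 with 0.1 CPM added to both values, and the difference was 137 CPM. No antisense read of MIR182 was listed in either genotype. With no read listed, up to 3 may have been missed, which is 0.233 CPM for Caco2 WT and 0.221 CPM for PIWIL2 KO. The sense value was at least 1474-fold and 2166-fold higher than the antisense value. As these are bulk samples, more cells that make a microRNA and more of it per cell cannot be told apart.

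MIR183 was listed at 0.54 sense CPM in Caco2 WT (interval 0.218 to 1.12), or about 7 reads. In PIWIL2 KO it was listed at 0.81 sense CPM (0.405 to 1.45), or about 11 reads. The intervals of the genotypes overlap widely. Its ratio of 1.50 (0.529 to 4.55) has an interval that holds the ratio of MIR182 as well as 1, so at this depth neither a difference between genotypes nor its absence could be shown. Antisense CPM of MIR183 was 0 in both genotypes.

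The members stood at very unequal levels. Both hairpins have 110 bases, though the length that each row counts over is not given. MIR182 was 635-fold higher than MIR183 in Caco2 WT and 592-fold higher in PIWIL2 KO. MIR183 made up 0.158% of the reads of the pair in Caco2 WT (interval 0.0636 to 0.325%) and 0.169% in PIWIL2 KO (0.0844 to 0.302%), so that a change in the proportion of the pair was not detectable. Both members together had 343 CPM for Caco2 WT and 480 CPM for PIWIL2 KO, with the ratio of MIR182 alone.

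**Figure D1:**
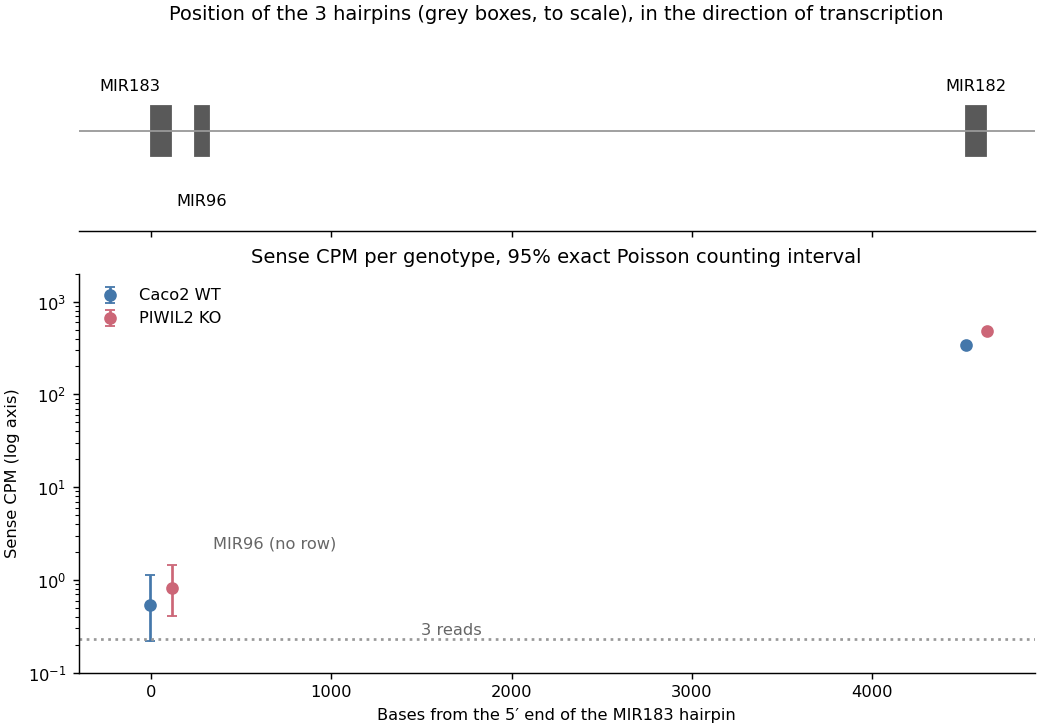
The upper panel places the 3 hairpins by their distance in bases from the 5′ end of MIR183, and the lower panel plots the sense CPM of the members on a log axis (Caco2 WT in blue, PIWIL2 KO in red, drawn side by side at each gene) with exact 95% Poisson counting intervals and a dotted line at 3 reads. MIR182, 4522 bases downstream of MIR183, sits between 342.93 and 479.69 CPM, while MIR183 sits at 0.54 and 0.81 CPM, close to the line.

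Among the 49 microRNA rows of the table, which belong to 48 genes and are all on the minus strand, MIR182 ranked 1 by mean sense CPM, in each genotype alone and also per length of hairpin. MIR183 ranked 24. Of the 1562 hairpins in the RefSeq table used here, only 737 lie on the minus strand. No named microRNA gene of the plus strand had a row, so ranks, sums and shares leave such genes out. The next row after MIR182 was MIR30D, a member of the miR-30 family, at 107.28 sense CPM in Caco2 WT and 168.43 in PIWIL2 KO, which MIR182 exceeded 3.20-fold and 2.85-fold. Per 100 bases of hairpin, the mean of both genotypes was 374 CPM for MIR182 and 197 CPM for MIR30D, so the lead of MIR182 was 1.90-fold on this scale. Whether reads of a row grow with hairpin length was not tested. MIR222, at 96.88 and 98.83 sense CPM, and MIR7-1, at 39.34 and 52.63, came next, and MIR221, MIR1307, MIR103A1, MIR30C2, MIR1301, MIR320A and MIR93 had means of 2.78 to 13.5 CPM. Over all 3437 deposited rows of every kind, MIR182 had rank 6 by mean sense CPM. The table thus holds few microRNA genes with abundant reads, and how reads of known hairpins were treated before these values were made is not given in the sources used here.

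**Figure D2:**
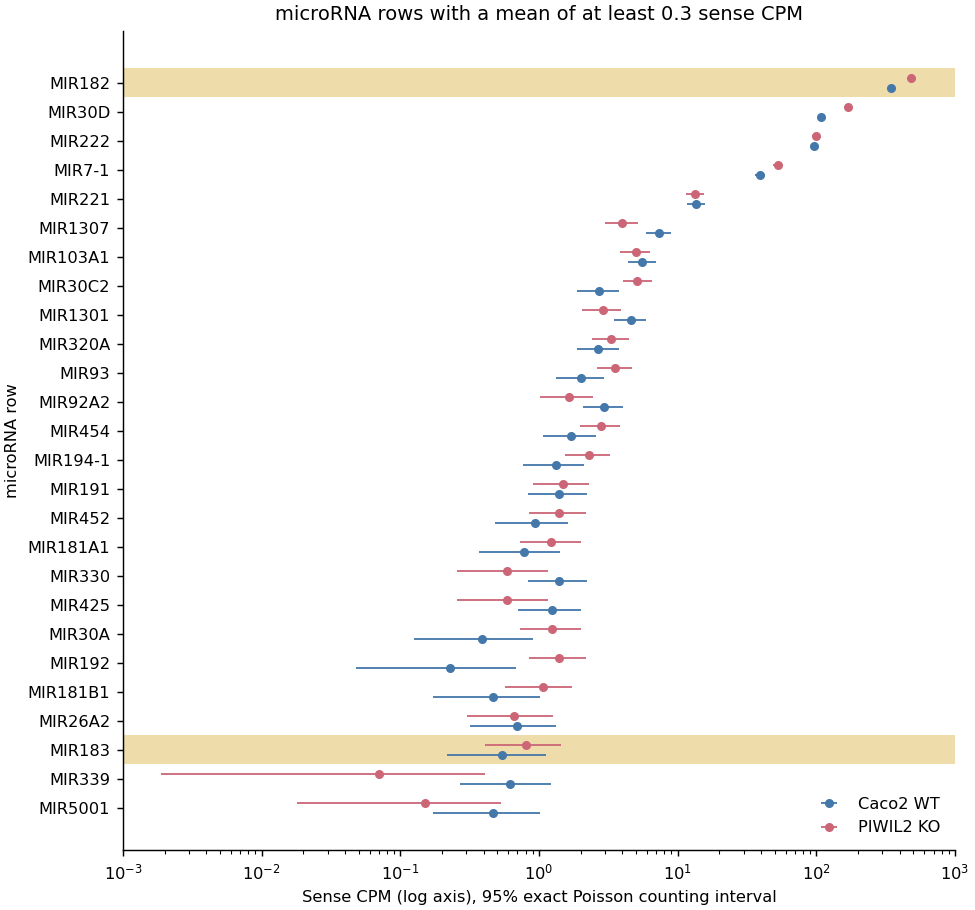
Sense CPM in Caco2 WT (blue) and PIWIL2 KO (red) on a log axis for the 26 microRNA rows past a mean of 0.3 CPM, with exact 95% Poisson counting intervals and the 2 members shaded. MIR182 lies at the top, above MIR30D at 107.28 and 168.43 CPM, and MIR183 lies near the bottom, where intervals are wide.

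On the strand, MIR182 was like most microRNA rows of the table. Sense CPM above 0 was listed for 45 of the 49 rows, and none of these 45 had antisense CPM. The 4 rows with antisense CPM had no sense CPM. Past 0.3 CPM these were MIR3184 (44.83 antisense CPM in Caco2 WT and 33.14 in PIWIL2 KO), MIR3529 (17.27 and 24.25) and MIR371B (0.85 and 0.15). A read counted as antisense to a row may belong to a gene on the opposite strand. This was not tested, and no named microRNA gene of the plus strand has a row to compare with.

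Within the microRNA rows, all of the minus strand, MIR182 held 53.3% of the sense CPM in Caco2 WT (interval 52.3 to 54.4%) and 56.0% in PIWIL2 KO (55.1 to 56.9%). This is not its share of all microRNA in the cells, as genes of the plus strand are left out. The microRNA rows summed to 643 CPM for Caco2 WT and 857 CPM for PIWIL2 KO. Of the difference of 214 CPM between them as deposited, MIR182 accounted for 64.0%. With PIWIL2 KO scaled to all deposited rows, the sum of the microRNA rows was 637 CPM, 5.8 CPM below that of Caco2 WT, while MIR182 was 13.8 CPM above its value in Caco2 WT. Scaled to the other microRNA rows, the sum was 39.1 CPM above that of Caco2 WT, which by construction lies in the cluster alone. Without the cluster, the microRNA rows summed to 299 and 376 CPM, a ratio of 1.26 (1.20 to 1.31), which was lower than that of MIR182. Against all deposited rows, the share of MIR182 was 6.22% in Caco2 WT (6.05 to 6.40%) and 6.47% in PIWIL2 KO (6.32 to 6.63%), with intervals that overlap.

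The direction of MIR182 was a common one among the deposited rows. Past a mean of 0.3 sense CPM there were 161 rows, and 68.9% of them were higher in PIWIL2 KO. Of the 26 microRNA rows among them 61.5% were higher, both members included. The counting interval of the ratio lay above 1 for 41.6% of the 161 rows and for 26.9% of the microRNA rows, among them MIR182 but not MIR183. Neither member was at least 2-fold higher, as were 27.3% of the 161 rows and 11.5% of the microRNA rows. The log2 ratio of MIR182 equalled the median of the 161 rows, 0.48, with 80 rows above it. For comparison, the median was 0.68 over 81 rows of small nucleolar RNAs, 0.19 over 24 other microRNA rows and -0.07 over 33 protein-coding rows, some of which repeat a 3′ UTR. The 161 rows held MIR183 a little above MIR182, at a log2 ratio of 0.51.

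**Figure D3:**
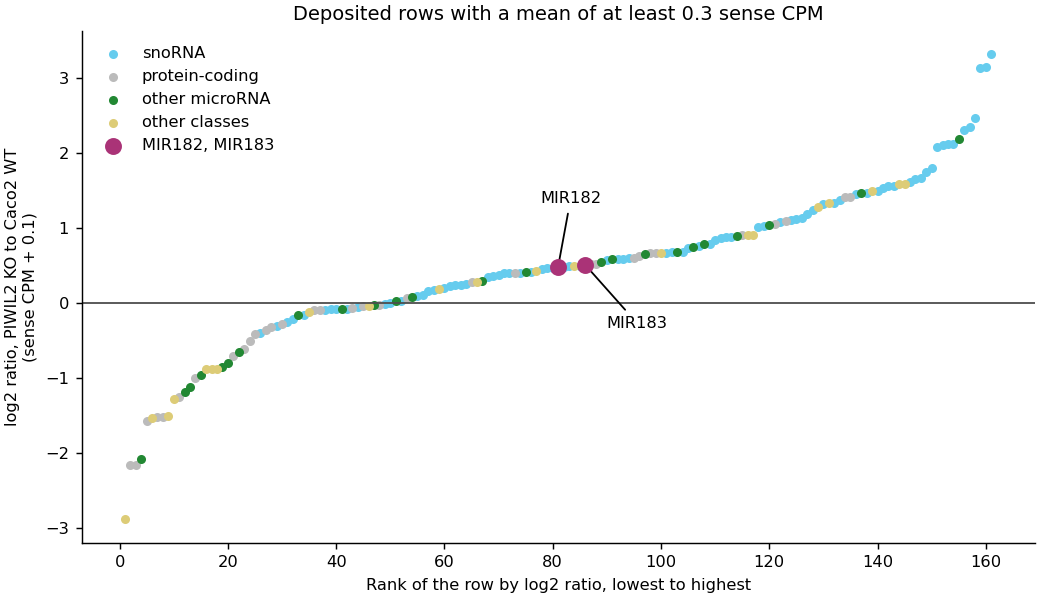
Log2 ratio of PIWIL2 KO to Caco2 WT (sense CPM with 0.1 added) of the 161 deposited rows past a mean of 0.3 CPM, ordered from lowest to highest and coloured by class of RNA. MIR182 at 0.48 and MIR183 at 0.51 sit in the middle of the order, with small nucleolar RNA rows making up most of the upper end.

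The ratio of the members, like that of every row, depends on what the libraries are scaled to. When PIWIL2 KO was rescaled to the sense sum of all deposited rows, which multiplies it by 0.744, MIR182 stood at 357 CPM, a ratio of 1.04 (1.00 to 1.08). With the sum of the other microRNA rows as the base it stood at 382 CPM, a ratio of 1.11 (1.07 to 1.16), and with the median of the protein-coding rows at 502 CPM, a ratio of 1.46 (1.41 to 1.52). MIR183 had ratios of 1.12, 1.19 and 1.57 under these scalings, each with an interval that includes 1. The intervals leave out the error of the sums and the median used for scaling. The split of the 161 rows moved as well, from 111 higher and 49 lower as deposited to 85 higher and 76 lower when scaled to all rows, and the rows changed at least 2-fold from 44 higher and 14 lower to 28 higher and 22 lower.

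**Figure D4:**
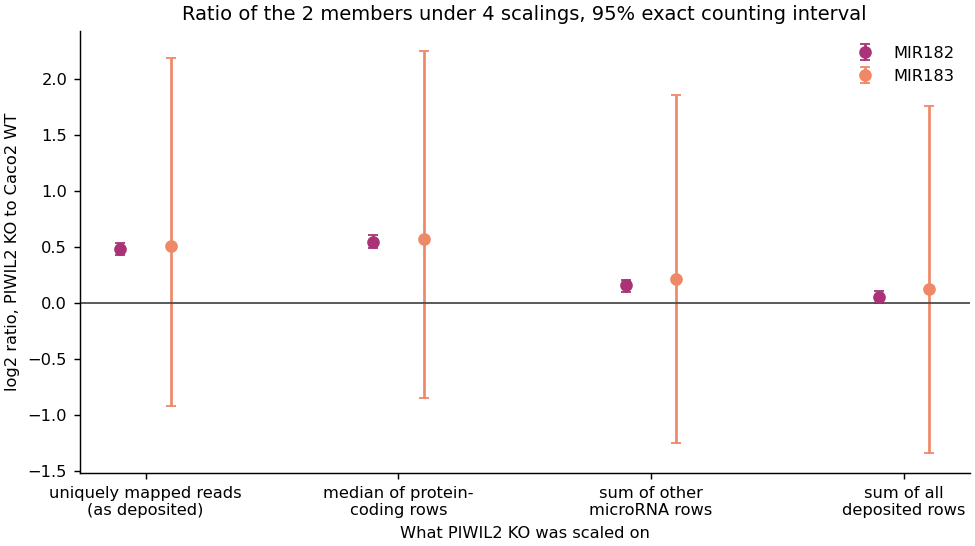
Log2 ratio of MIR182 and MIR183 (sense CPM with 0.1 added) under the deposited scaling and 3 rescalings of PIWIL2 KO, with exact 95% counting intervals of the ratio as vertical lines. MIR182 moves from 0.48 as deposited to 0.06 when scaled to all deposited rows, while the interval of MIR183 crosses 0 under all 4 scalings.

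The other microRNA rows moved in both directions. Of the 24 past the minimum, 14 were higher and 10 lower in PIWIL2 KO, against 10 higher and 14 lower when scaled to all deposited rows. Their log2 ratios ran from -2.08 to 2.18, with 10 above and 14 below that of MIR182, and MIR182 lay 0.30 above their median, against 0.56 with no minimum and 0.13 with a minimum mean of 1 CPM. The counting interval lay above a ratio of 1 for 6 and below it for 4. The 5 rows whose log2 ratio over the pair of genotypes was nearest to that of MIR182 were MIR452 (0.54), MIR7-1 (0.42), MIR181A1 (0.58), MIR30D (0.65) and MIR320A (0.30). Only MIR30D and MIR7-1 of these rest on more than 100 reads in each genotype. MIR30D had a ratio of 1.57 (1.47 to 1.68) and MIR7-1 a ratio of 1.34 (1.19 to 1.50).

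Of the 4 other rows with a mean above 10 CPM, MIR30D had a higher ratio than MIR182, and MIR7-1, MIR222 and MIR221 had a lower one. MIR222 and MIR221 are a pair on chromosome X with the same seed in their 3p arms. MIR222 had a ratio of 1.02 (0.944 to 1.10) and MIR221, at 13.65 and 13.36 sense CPM, a ratio of 0.979 (0.791 to 1.21). Lower in PIWIL2 KO were MIR1307, from 7.29 to 3.99 sense CPM with a ratio of 0.547 (0.384 to 0.772), and MIR1301, from 4.58 to 2.88 with a ratio of 0.629 (0.409 to 0.958). At the ends of the range counts were small. MIR192 was listed at 0.23 and 1.40 sense CPM, MIR30A at 0.39 and 1.25 and MIR181B1 at 0.47 and 1.07, while MIR339 was listed at 0.62 and 0.07, MIR5001 at 0.47 and 0.15 and MIR330 at 1.40 and 0.59.

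**Figure D5:**
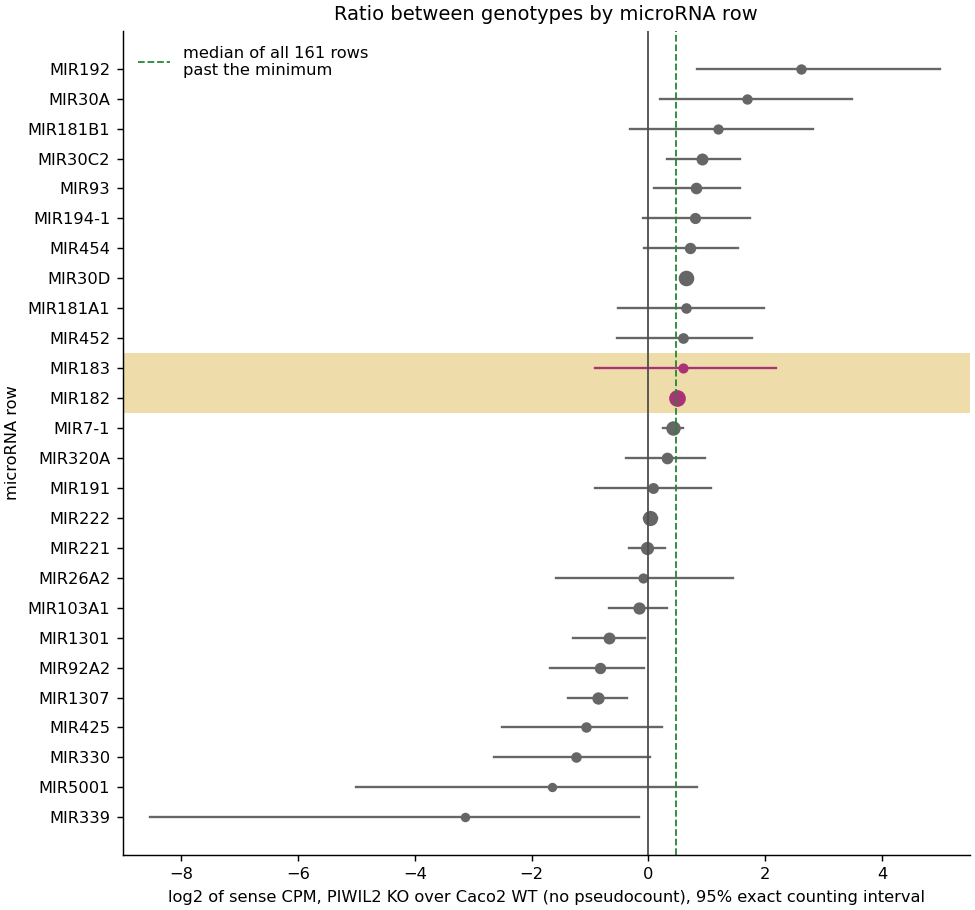
Log2 of the ratio of sense CPM between PIWIL2 KO and Caco2 WT, with no CPM added, for the 26 microRNA rows past a mean of 0.3 CPM, with exact 95% counting intervals as lines, dot size growing with the number of reads, the members shaded and the median of all 161 rows (0.1 CPM added) as a dashed line. MIR182 lies on the dashed line with a narrow interval, MIR183 has an interval on both sides of 0, and MIR222 and MIR221 lie near 0.

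Few genes of the microRNA pathway had a row, and none of those rows passed the minimum. A gene without a row was not measured here. Of 21 genes of microRNA processing and function, 3 had a row, and only TNRC6B, a partner of Argonaute proteins in repression, had CPM above 0, at 0.03 sense CPM in Caco2 WT and 0 in PIWIL2 KO in each of its 3 rows. Of 25 described targets of the cluster, 3 had a row. SMAD4, a mediator of TGF-beta signals, was listed at 0.08 and 0 sense CPM, and ITGB1, an integrin, and CTTN, an actin-binding protein, had at most 0.06 sense CPM in any row. All of these lie below the limit of 3 reads, and short fragments of a 3′ UTR do not measure its messenger RNA. Such low values were common in the table. Of all 3437 deposited rows, 1602 were 0 in all 4 value columns, and only 161 had a mean of at least 0.3 sense CPM.

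Few of the microRNAs known from intestinal epithelium had a row. Of 16 microRNAs of intestinal epithelium, 5 had a row, and the 3 past the minimum, MIR192, MIR194-1 (1.32 and 2.29 sense CPM, ratio 1.73, interval 0.931 to 3.34) and MIR7-1, were higher in PIWIL2 KO as deposited, where 61.5% of microRNA rows were. Scaled to all deposited rows, the ratio of MIR7-1 was 0.995 (0.887 to 1.12) and that of MIR194-1 was 1.29 (0.692 to 2.49). MIR192 had a ratio of 4.53 (1.32 to 23.6) on this scale, but rests on about 3 and 19 reads. Of 18 microRNAs often raised in colorectal cancer other than the members, 6 had a row, and of the 4 past the minimum, MIR93 (2.02 and 3.54 sense CPM), MIR181B1 and MIR222 were higher as deposited and MIR221 was lower, a count near the same background. As deposited, the interval was clear of a ratio of 1 for MIR93 alone (1.07 to 2.95). Scaled to all deposited rows, the interval of MIR93 included 1 (0.794 to 2.19), and those of MIR222 (0.702 to 0.820) and MIR221 (0.588 to 0.901) lay below it. These calls were the same when scaled to the other microRNA rows, and MIR221 had a ratio of 1.02 when scaled to the protein-coding rows. Of 22 microRNAs of other cell types only MIR451A had a row, at 0.16 and 0.07 sense CPM, and none of the 12 genes of the let-7 and miR-98 family had one. As the microRNA rows all lie on the minus strand, the lack of a row in any of these lists does not show absence from the cells. The label of colon epithelial cells could not be checked on the deposited rows, as short fragments of 3′ UTRs do not measure messenger RNA. KRT8 and CDH1, an epithelial keratin and cadherin, were the only genes with a row among 17 of colon epithelium, with at most 0.11 sense CPM in Caco2 WT and 0.30 in PIWIL2 KO, and of 12 genes of other cell types 1 had a row, at 0.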

How the data were processed

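Reads of 3 Caco2 WT and 3 PIWIL2 KO samples were trimmed by the authors with Cutadapt 1.15 and counted per strand with piPipes on hg19. The deposited table gives CPM, scaled by the authors to uniquely mapped reads, as 1 value per genotype and strand, stated to be an average over 3 samples. Of its 3437 rows, 1602 were 0 in all 4 value columns. Gene names for 3382 rows came from RefSeq accessions (GRCh38.p14, names and lengths only). Members and gene lists were chosen with earlier results of these data known. The CPM worth of 1 read was the step that made the largest share of values up to 5 CPM whole within 0.005 CPM (75.3% in Caco2 WT and 72.6% in PIWIL2 KO), so read numbers are estimates. Ratios were given exact Clopper-Pearson and levels exact Poisson 95% intervals (scipy 1.17.1, numpy 2.4.6, pandas 2.3.3, Python 3.11.15, figures with matplotlib 3.10.9). Whether the step search and the intervals hold for values that are means of samples scaled separately was not tested. Log2 ratios used a pseudocount of 0.1 CPM, and counts and medians rows with a mean of at least 0.3 sense CPM. Shares used exact binomial intervals. Mature sequences were searched in GRCh37 on both strands.

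Beside the members, the text names among microRNA rows past the minimum the 10 with the highest mean, the 5 nearest to MIR182 by log2 ratio and the 3 highest and 3 lowest ratios, those with antisense CPM of at least 0.3, and list members past that minimum. TNRC6B, SMAD4, ITGB1, CTTN, MIR451A, KRT8 and CDH1 were named after their values were seen.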

Additional observations from a re-analysis of the deposited data

How the results depend on the processing

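No paired analysis was possible because each genotype and strand has a single value over its samples, and for the same reason no sample could be left out in turn. Other pseudocounts (0.01 and 1 CPM) left MIR182 and the sum of the cluster at a log2 ratio of 0.48. Both had 0.16 when PIWIL2 KO was scaled to the other microRNA rows, 0.06 when scaled to all deposited rows and 0.55 when scaled to the median of protein-coding rows, where the counting interval for MIR182 scaled to all deposited rows ran from 0.00 to 0.11. MIR183, for which the same settings were chosen after seeing the data, stayed within its counting interval. MIR182 lay 0.30 above the median of other microRNA rows, against 0.56 with no minimum CPM and 0.13 with a minimum mean of 1 CPM. Its share in PIWIL2 KO was 2.66 percentage points above that in Caco2 WT among microRNA rows and 0.251 among all rows. It ranked 1 in each of the 3 alternatives. The scaled sums of microRNA rows and the scaled ratios of single other microRNAs were added after seeing the data. The antisense values of 0 give no ratio to vary.

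Rows at least 2-fold higher numbered 44, against 19 with 1 CPM added, 28 when scaled to all rows, 75 with no minimum and 28 with a minimum of 1 CPM. Rows at least 2-fold lower numbered 14, against 5, 22, 44 and 6 under these settings. Depth limits MIR183, which rests on 7 and 11 reads, and single values per genotype leave the spread between samples unknown for both members.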
